A study of Mus musculus with 6 samples.

Results

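The genes described here are the inhibitors of DNA binding Id1, Id2 and Id3 and the SMAD genes Smad1, Smad2, Smad3, Smad4, Smad5, Smad6 and Smad7. All probes that the array annotation assigns to 1 of these 10 genes alone were taken, which gave 18 probes of 16281 on the array. Ratios on all 6 arrays were present for 12 of the 18 probes, from 7 of the 10 genes, and these 7 were among 8331 genes with such ratios. The 10 genes were chosen by family name and selected on the log2 ratios of Id2, whose fall between treated and untreated cells was already known. The ratios of the 10 genes in that comparison are therefore descriptions, without a test, and support nothing about the choice.

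RAW 264.7 cells, a mouse macrophage line, were either left untreated or given lipopolysaccharide (LPS, 100 ng/ml) together with LPS-binding protein (LBP, 100 pM) for 1 h. LPS comes from the cell wall of Gram-negative bacteria, and LBP hands it to the receptor complex on the macrophage. Part of the label text writes the name of the line with another last digit, and it was read as in the sample titles. Total RNA of treated and untreated cells was labelled with opposite dyes and put together on each of 6 arrays, with Cy5 on the treated RNA of 3 arrays (called Cy5 arrays below) and Cy3 on that of the other 3 (Cy3 arrays), numbered as sets 1 to 3 in each orientation. Nothing in the labels tells whether each set came from its own culture, so the spread and the p-values given here may be technical. All cells belong to 1 line, and no second line or primary macrophage was compared.

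Each value is a log2 ratio of treated over untreated RNA, so that 1 is a doubling and 0 is no difference. On every array the label text names the Cy5 sample as the test, so Cy5 was taken as the numerator and the other 3 arrays, where treated RNA carried Cy3, were turned. Every sign here would turn with Cy3 as the numerator. Under the reading used, the early LPS response genes Tnf (2.44 ± 0.19, SD over 3 sets), Il1b (2.54 ± 0.16) and Egr1 (5.13 ± 0.16) were higher in treated RNA. A ratio carries no level, so the presence of macrophage or other markers in these cells could not be read from it. Of the macrophage markers listed, 9 of 10 had ratios on all arrays, from -0.21 to 0.55, with Adgre1 higher and Fcgr3 lower by the test. Of the lymphocyte markers 6 of 10 had them, from -0.19 to 0.47, with Cd4 and Cd79a higher, and of the fibroblast and epithelial markers 3 of 10, from -0.06 to -0.04, with none past the test. These 4 genes are named after their values were seen. The part of other cells in the results was not tested, and in bulk RNA fewer cells of a type and less RNA per cell cannot be told apart.

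ID proteins carry the helix-loop-helix fold through which transcription factors dimerise but lack the basic region that touches DNA. They hold E proteins, the broadly expressed helix-loop-helix factors, in dimers that cannot bind DNA. SMAD proteins carry signals of the TGF-beta superfamily from the receptors to the nucleus: SMAD1 and SMAD5 respond to bone morphogenetic proteins (BMPs), SMAD2 and SMAD3 to TGF-beta and activins, SMAD4 joins either kind, and SMAD6 and SMAD7 block the pathway. The Id genes are classical targets of BMP-activated SMADs, and Id2 is known in immunity for its role in the development of dendritic cells and innate lymphoid cells.

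The upstream sequences of Id2 and Id3 are shown because these genes lay on opposite sides of 0 after treatment. They are the 250 bases before the RefSeq start site (build GRCm38.p6), on the gene's strand from 5′ to 3′. Id2 is at chr12:25096093-25096342 on the minus strand and Id3 at chr4:136143572-136143821 on the plus strand. Capitals mark the GC-rich element GGCGCC that BMP-responsive SMADs bind and the SMAD box GTCT or its complement AGAC.
Id2: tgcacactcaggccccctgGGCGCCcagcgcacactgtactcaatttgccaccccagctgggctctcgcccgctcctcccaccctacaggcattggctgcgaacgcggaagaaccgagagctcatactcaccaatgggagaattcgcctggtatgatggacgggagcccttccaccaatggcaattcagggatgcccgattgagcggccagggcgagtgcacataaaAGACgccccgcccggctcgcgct
Id3: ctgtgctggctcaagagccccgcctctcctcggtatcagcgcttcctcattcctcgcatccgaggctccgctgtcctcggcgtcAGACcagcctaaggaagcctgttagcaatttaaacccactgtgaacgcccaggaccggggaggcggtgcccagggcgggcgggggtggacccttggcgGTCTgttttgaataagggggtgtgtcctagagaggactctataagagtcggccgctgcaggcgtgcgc

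The Id2 window held 1 GGCGCC, between 231 and 226 bases before the start, 1 GTCT and 1 E-box (CANNTG), and the Id3 window held 2 GTCT, no GGCGCC and no E-box. Both strands were searched, and no match of GTCT overlapped one of GGCGCC in these windows. Of 32851 RefSeq upstream windows of that length, 9.59% held GGCGCC, 82.9% held GTCT and 66.2% held CANNTG. The longer palindrome GTCTAGAC, found in 0.167% of the windows, was in neither. RefSeq windows were matched for 6 of the 10 genes (Id2, Id3, Smad1, Smad3, Smad5 and Smad6), and the genes without an entry were Id1, Smad2, Smad4 and Smad7. A match describes letters, and binding was not measured.

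Id2 was lower in treated RNA on every array with both of its probes. Probe 9920 gave -1.46, -1.31 and -1.27 in sets 1, 2 and 3 of the Cy5 arrays, and -1.48, -1.17 and -1.55 in those of the Cy3 arrays. Probe 14059 gave -1.45, -1.46 and -1.51 in Cy5, and -1.41, -1.15 and -1.47 in Cy3. The smallest fall on either probe was in set 2 with treated RNA in Cy3. The probes differed by 0.04 ± 0.07 (SD, n = 3 sets), less than their spread, although the array annotation ties them to different database records of the gene. Averaged over probes and orientations, Id2 was lower by a log2 ratio of -1.39 ± 0.10 (SD, n = 3 sets), or 2.62-fold. Of the 8331 genes, 1 had a lower mean, and 0.624% had a larger mean in either direction.

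**Figure D1:**
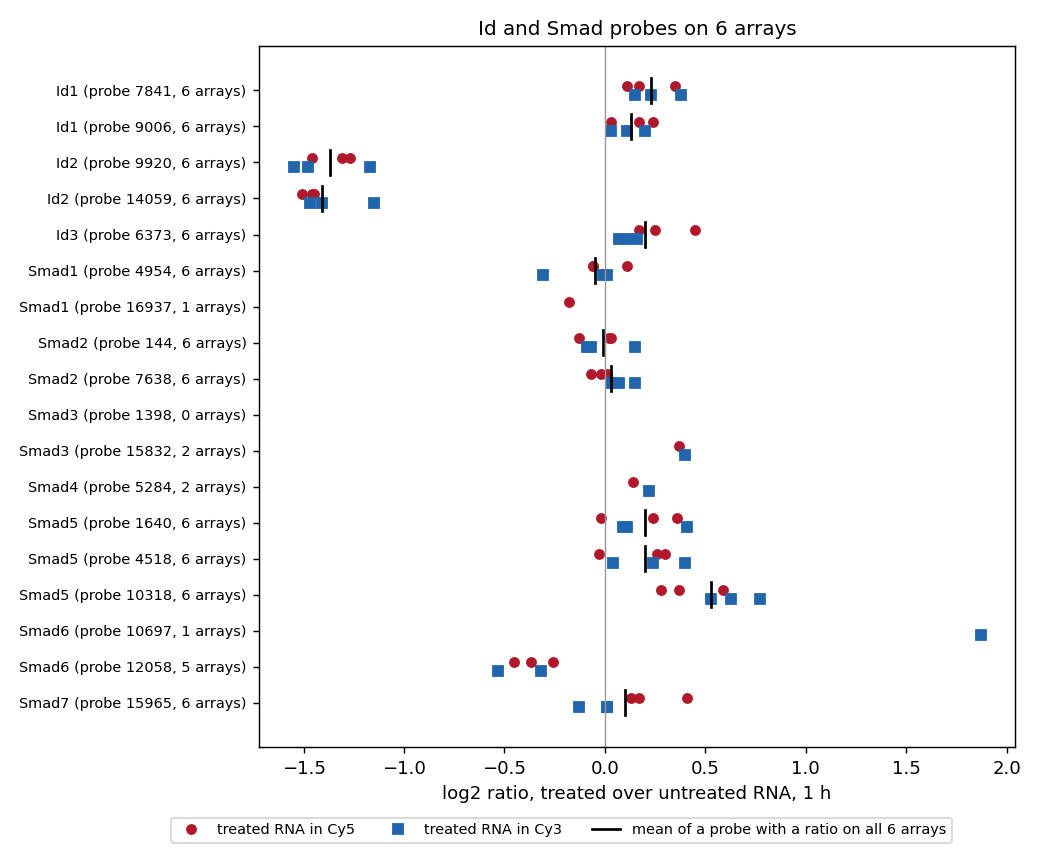
Log2 ratio of treated over untreated RNA (horizontal axis) for each Id and Smad probe (rows), with circles for the arrays whose treated RNA carried Cy5, squares for those whose treated RNA carried Cy3, and a bar at the mean of probes measured on all 6 arrays. Both Id2 probes sit between -1.55 and -1.15 on all arrays, and Id1 and Id3 sit above 0 on all arrays.

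The other ID genes were slightly higher in treated RNA. Id1 probe 7841 gave 0.35, 0.11 and 0.17 in Cy5 and 0.38, 0.15 and 0.23 in Cy3, and probe 9006 gave 0.03, 0.17 and 0.24 in Cy5 and 0.11, 0.03 and 0.20 in Cy3. All 12 values lay above 0, and the probes differed by 0.10 ± 0.17, within their spread. As a gene, Id1 averaged 0.18 ± 0.06 (SD, n = 3 sets), or 1.13-fold, and 16.2% of all genes had a larger mean in either direction. The single Id3 probe gave 0.25, 0.45 and 0.17 in Cy5 and 0.07, 0.11 and 0.16 in Cy3, a mean of 0.20 ± 0.07. The lowest Cy5 array (0.17) and the highest Cy3 array (0.16) of Id3 were almost level, with orientation means of 0.29 and 0.11.

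Within each array, Id2 was below its relatives. The difference Id2 minus Id1 ran from -1.73 to -1.25 over the 6 arrays, with a mean of -1.57 ± 0.16 (SD, n = 3 sets). Id2 minus Id3 ran from -1.84 to -1.27, with a mean of -1.59 ± 0.03. Id1 minus Id3 was -0.02 ± 0.13 and took both signs over the arrays, from -0.31 to 0.17. The fourth ID gene, Id4, averaged -0.08 ± 0.10 (limma, adjusted p = 0.39) and is named after its value was seen.

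Of the SMADs that BMP receptors activate, Smad5 was higher and Smad1 stayed near 0. Smad5 had 3 probes on all arrays. Probe 1640 gave -0.02, 0.24 and 0.36 in Cy5 and 0.09, 0.11 and 0.41 in Cy3. Probe 4518 gave -0.03, 0.26 and 0.30 in Cy5 and 0.04, 0.24 and 0.40 in Cy3. Probe 10318, annotated with the same database record as probe 4518, gave 0.37, 0.28 and 0.59 in Cy5 and 0.63, 0.53 and 0.77 in Cy3. On all 6 arrays probe 10318 was the highest of the 3, by 0.33 ± 0.17 over probe 4518 and 0.33 ± 0.12 over probe 1640, whereas the latter probes differed by -0.00 ± 0.06. The gene mean was 0.31 ± 0.15, or 1.24-fold, and probe 10318 alone averaged 0.53 ± 0.14. In both orientations set 3 was the highest for the gene, at 0.42 in Cy5 and 0.52 in Cy3.

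Smad1 probe 4954 gave -0.06, 0.11 and -0.06 in Cy5 and -0.01, -0.31 and 0.01 in Cy3, a mean of -0.05 ± 0.04 over sets and both signs over arrays. Its other probe had a ratio on 1 array, -0.18. The orientation means of the complete probe were -0.00 and -0.10, with array SDs of 0.10 and 0.18.

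Among the SMADs of the TGF-beta and activin branch, Smad2 did not move beyond its spread. Probe 144 gave 0.02, -0.13 and 0.03 in Cy5 and -0.07, 0.15 and -0.09 in Cy3, and probe 7638 gave -0.02, 0.01 and -0.07 in Cy5 and 0.03, 0.15 and 0.07 in Cy3. The gene mean was 0.01 ± 0.03 (SD, n = 3 sets). Smad3 was measured in set 3 alone, at 0.37 in Cy5 and 0.40 in Cy3 on probe 15832, and its other probe was listed at 0 on all arrays. Smad4, which encodes the shared partner SMAD, was likewise measured in set 3 alone, at 0.14 in Cy5 and 0.22 in Cy3. With 1 set each, the ratios of Smad3 and Smad4 have no replicate check.

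Of the inhibitory SMAD genes, Smad7 gave 0.41, 0.13 and 0.17 in Cy5 and 0.01, -0.13 and 0.01 in Cy3. The orientations did not overlap, and how many of all genes separate in this way was not counted. The Smad7 mean of 0.10 ± 0.10 equalled its SD. Smad6 probe 12058 was below 0 on each of the 5 arrays where it was measured, at -0.45, -0.37 and -0.26 in Cy5 and -0.53 and -0.32 in sets 2 and 3 in Cy3. Its other probe, 10697, had a ratio on 1 array, set 2 in Cy3, and that ratio was 1.87. With incomplete probes included, the average of the probes put Smad6 at -0.07 ± 0.31 over 2 sets, a value within its spread of 0. That average includes the single 1.87 of probe 10697, and probe 12058 alone averaged -0.39 over its 5 arrays.

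Over all genes, 13.2% passed the test of treated against untreated RNA (limma, Benjamini-Hochberg adjusted p under 0.05), 6.96% higher and 6.21% lower. The same fit put 4 of the 7 Id and Smad genes past that threshold, with Id1, Id3 and Smad5 higher and Id2 lower. The same comparison was in view when the genes were chosen, so this count is a description, and nothing is read from it. Taken singly, neither Id1 probe lay past it, and 1 of the 3 Smad5 probes (10318) did. Id1 and Id3 no longer lay past it with any 1 set left out, nor did Smad5 without set 1 (0.37) or set 3 (0.23). Id1, Id3 and Smad5 also did not lie past it with zeros kept as ratios, or in either orientation alone. With zeros kept, the means and SDs of Id1, Id3 and Smad5 did not change. The count over all genes went from 1097 to 522 with zeros kept, and to between 499 and 832 with a set left out. The median over the 7 was 0.10, beside -0.01 over all genes. Over the 11 alternative settings the mean of Id2 ran from -1.52 to -1.36, that of Id1 from 0.16 to 0.21, that of Id3 from 0.11 to 0.29 and that of Smad5 from 0.23 to 0.37. The mean of Smad7 ran from -0.04 to 0.24.

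The mean of the unturned ratios measures what both dye orientations share, a dye effect, which played no part in choosing the genes. It passed the test for 0.06% of all genes and for 0 of the 7 Id and Smad genes (limma), the lowest adjusted p being 0.135. At an unadjusted p under 0.05 it included 1 of the 7, Smad7 (0.14 ± 0.06), beside 27.8% of all genes. For Id2 the dye effect was -0.02 ± 0.09 (limma, adjusted p = 0.792) and for Id1 -0.00 ± 0.03 (adjusted p = 0.972). For Id3 it was 0.09 ± 0.09 (adjusted p = 0.278).

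**Figure D2:**
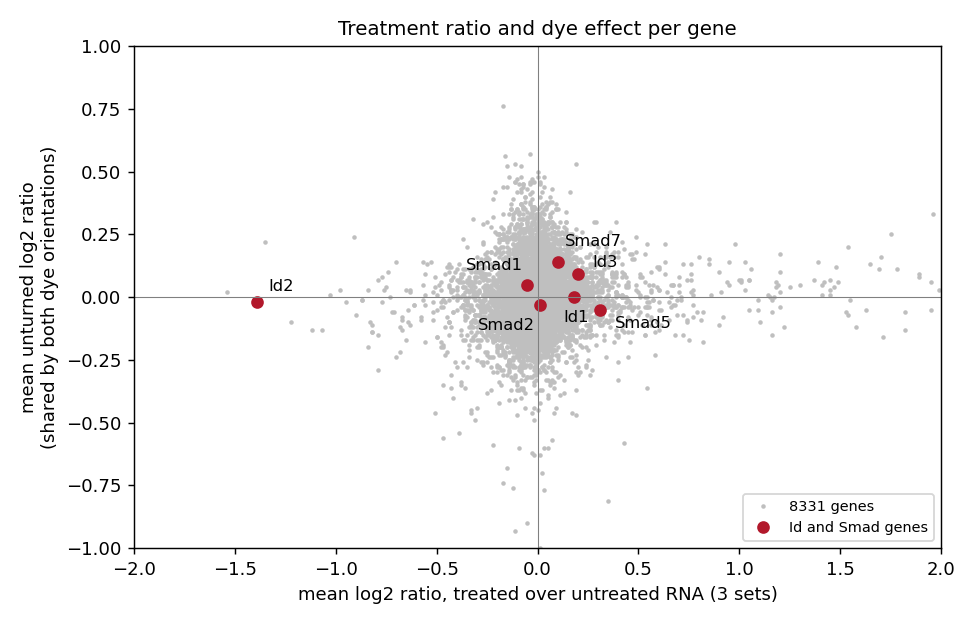
Mean log2 ratio of treated over untreated RNA (horizontal axis) against the mean unturned log2 ratio shared by both dye orientations (vertical axis), for 8331 genes in grey and the 7 Id and Smad genes with ratios on all arrays in red; 35 genes lie outside the axes. Id2 lies at -1.39 with a dye effect of -0.02, while Smad7 lies at 0.10 with a dye effect of 0.14.

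The genes with 6 ratios nearest to those of Id2, by root mean square difference over the 6 arrays, were Sfi1 (0.188), Slx1b (0.276), Gpr146 (0.296), Inka1 (0.298) and Pvt1 (0.363). Sfi1 fell by 1.54 ± 0.08 and Gpr146 fell by 1.35 ± 0.05. Slx1b averaged -1.22 ± 0.14, Inka1 -1.12 ± 0.04 and Pvt1 -1.07 ± 0.08. With 6 arrays of 1 comparison, this likeness reflects mainly the size of the mean ratio.

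Other genes of the pathway were taken from 6 lists by role. Of 136 listed genes, 73 had ratios on all 6 arrays, and 9 of these rose and 6 fell, or 20.5% beside 13.2% of all genes. Their median ratio was 0.01, beside -0.01 over all genes. The lists were drawn up with earlier results of these data known. The shares and p-values of listed genes are therefore descriptions, and no response of the pathway is read from them.

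None of 11 ligand genes of the BMP, TGF-beta and activin family passed (limma; 1 of 11, Tgfb1, at an unadjusted p under 0.05), with a median of 0.03. Tgfb1, the main TGF-beta of macrophages, gave 0.13, 0.39 and 0.81 in Cy5 and 0.17, -0.05 and 0.76 in Cy3, so that set 3 was high in both orientations (mean 0.37 ± 0.36, adjusted p = 0.122, and 0.16 without set 3). Bmp4, a BMP ligand, averaged -0.18 ± 0.23 (adjusted p = 0.238), and -0.05 without set 2.

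Of 10 receptor and co-receptor genes, 1 rose and 2 fell, or 30% beside 13.2% of all genes, with a median of -0.07. Acvr2b, an activin type II receptor gene, fell by 0.26 ± 0.07 (limma, adjusted p = 0.0137), and was below 0 on all 6 arrays, from -0.36 to -0.13. Over all genes, 19.1% had 1 sign on all 6 arrays. The Acvr2b probes averaged -0.37 and -0.16, and the latter did not pass. Its relative Acvr2a rose by 0.20 ± 0.07 (adjusted p = 0.0391). Its probes averaged 0.33 and 0.07, and the latter did not pass. Tgfbr2, the type II receptor gene for TGF-beta, fell by 0.20 ± 0.08 (adjusted p = 0.0394). These calls were not firm. Without set 1 none of the 3 passed (Acvr2b -0.25, Acvr2a 0.19 and Tgfbr2 -0.16), and the count over all genes also went from 1097 to 499. Without set 2 Tgfbr2 (-0.22) did not pass, and without set 3 Tgfbr2 (-0.23) and Acvr2a (0.16) did not. With zeros kept as ratios, or on the Cy5 arrays alone, none of the 3 passed. With zeros kept, the mean of Tgfbr2 became -0.10, and those of Acvr2a and Acvr2b did not change.

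The 10 measured genes of extracellular and membrane antagonists and latency proteins had 0 calls (limma; 0 at an unadjusted p under 0.05), and their means lay between -0.08 and -0.01. Lefty1, a secreted antagonist of Nodal, averaged -0.08 ± 0.09 (adjusted p = 0.336), and Chrd, which binds BMPs outside the cell, averaged -0.08 ± 0.07 (adjusted p = 0.315).

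Skil and Tgif1, nuclear repressors of SMAD action, rose. Of 17 intracellular SMAD regulators and partners, 3 rose and 1 fell, or 23.5% beside 13.2% of all genes, with a median of 0.08. Skil, which encodes the SMAD corepressor SnoN, gave 1.28, 1.33 and 1.24 in Cy5 and 1.47, 0.85 and 1.31 in Cy3, and rose by 1.25 ± 0.14, or 2.37-fold (limma, adjusted p = 0.000101). Tgif1, a homeobox corepressor of SMAD2 and SMAD3, gave 0.72, 0.92 and 0.70 in Cy5 and 0.54, 0.69 and 0.61 in Cy3, and rose by 0.70 ± 0.09 (adjusted p = 0.000454). Both passed under all 11 alternative settings, with means from 1.18 to 1.32 for Skil and from 0.61 to 0.78 for Tgif1. Zeb2, a SMAD-binding zinc finger repressor, rose by 0.40 ± 0.21 (adjusted p = 0.0258). It lost its call without set 2 or without set 3 (0.34 in both cases), or on the Cy5 arrays alone (0.24). With zeros kept as ratios Zeb2 did not pass either, at an unchanged mean of 0.40. Nedd4l, a ubiquitin ligase that acts on activated SMADs, fell by 0.22 ± 0.03 (adjusted p = 0.0191) and did not pass without set 1 (-0.23), set 2 (-0.21) or set 3 (-0.21), or on the Cy3 arrays alone (-0.12).

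The list of helix-loop-helix factors held partners of the ID proteins, Id4 and repressors of the Hes and Bhlhe40 type. Of its 14 measured genes, 1 rose and 3 fell (28.6%, beside 13.2% of all genes), and 10 did not pass, with a median of -0.09. Lyl1, a blood cell helix-loop-helix factor that dimerises with E proteins, gave -0.45, -0.44 and -0.41 in Cy5 and -0.65, -0.64 and -0.48 in Cy3, and fell by 0.51 ± 0.06 (limma, adjusted p = 0.000985). Its close relative Tal1 fell by 0.38 ± 0.03 (adjusted p = 0.00226), with ratios from -0.55 to -0.17. Hes6 fell by 0.33 ± 0.06 (adjusted p = 0.00508). Bhlhe40, a repressor that responds early to many stimuli, rose by 0.51 ± 0.16 (adjusted p = 0.00443), with 0.08 in set 2 of the Cy3 orientation and 0.52 to 0.67 on the remaining arrays. Leaving out any single set ended none of these 4 calls. Bhlhe40 did not pass on the Cy3 arrays alone (0.43) or with zeros kept as ratios (0.51, unchanged). Tal1 did not pass on the Cy5 arrays alone (-0.29). Named after their values were seen, the E protein genes Tcf3 and Tcf4 averaged 0.00 ± 0.02 (adjusted p = 0.97) and -0.17 ± 0.08 (adjusted p = 0.0696). Tcf3 took opposite signs in the orientations, with means of 0.12 in Cy5 and -0.11 in Cy3.

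Of 11 textbook target genes of TGF-beta or BMP, 4 rose, 0 fell and 7 did not pass. The share called was 36.4%, beside 13.2% of all genes, and the median was 0.12, beside -0.01. Gadd45b, a stress sensor gene, rose by 1.37 ± 0.19 (limma, adjusted p = 0.000141) and Cdkn1a, the cell cycle inhibitor gene of p21, by 0.67 ± 0.09 (adjusted p = 0.000547). The Cdkn1a probes averaged 0.26, 0.91 and 0.84, and the first took both signs over the arrays. Vegfa, a growth factor gene for blood vessels, rose by 0.51 ± 0.06 (adjusted p = 0.001) and Tsc22d1 by 0.45 ± 0.18 (adjusted p = 0.0101). All 4 passed with any single set left out. Tsc22d1 averaged 0.21 in Cy5 and 0.69 in Cy3, with no overlap between the orientations, but its dye effect did not pass (limma, adjusted p = 0.114). The Tsc22d1 call was lost on the Cy5 arrays alone, and with zeros kept as ratios (0.45, unchanged). The connective tissue growth factor gene Ccn2, a common readout of TGF-beta named after its value was seen, averaged 0.03 ± 0.07 (adjusted p = 0.702).

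**Figure D3:**
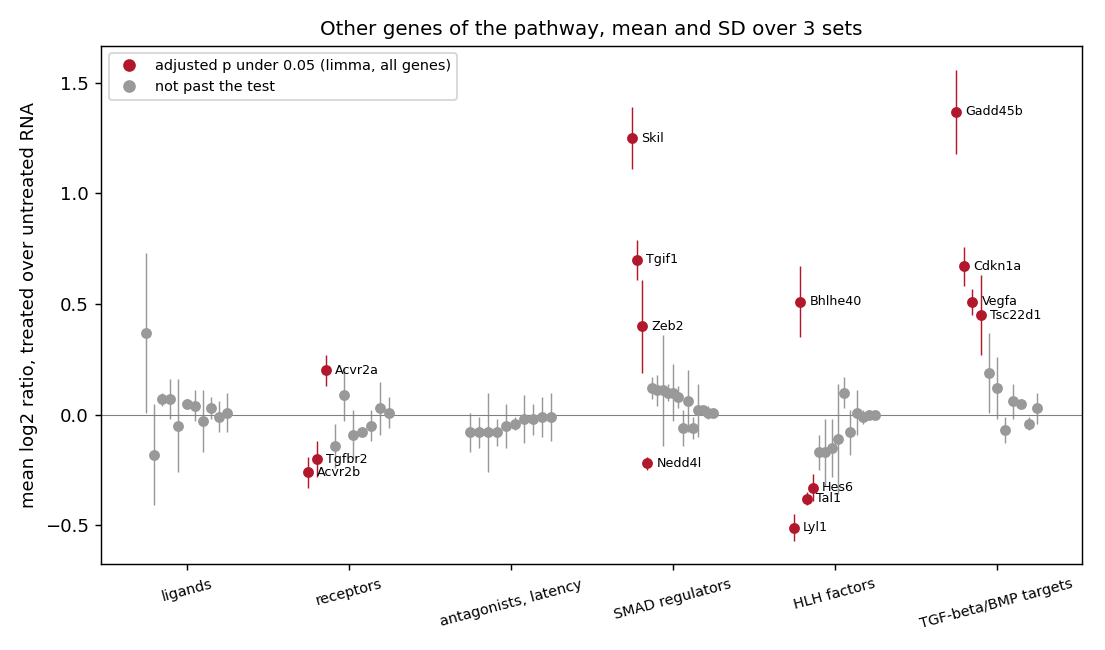
Mean log2 ratio of treated over untreated RNA (vertical axis, bars for the SD over 3 sets) of the 73 measured genes in 6 lists by role (columns), in red where the adjusted p was under 0.05. Skil (1.25) and Gadd45b (1.37) are the highest points and Lyl1 (-0.51) the lowest, while no ligand or antagonist is red.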

How the data were processed

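The authors deposited, for each probe and array, a log2 ratio of the 2 channels. Base 2 was read from the values (in 100% of the non-zero values, the log10 form ends within 6 digits; relative tolerance 1e-13 plus 1e-15). Scanner, background correction and normalization are not given in the sources used here. Array medians lay between 0.0043 and 0.0159, and how arrays were centred stays unknown, as do intensities, so the number of arrays limits the precision. An exact 0 (8.99% to 23.89% of values per array) was taken as no ratio.

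Probes with 1 symbol (13738; several 52, none 2491) and ratios on all 6 arrays (9968) were averaged by gene (8331). Symbols came from the platform annotation, and a RefSeq table (GRCm38.p6) changed 0 of them. Arrays of both orientations with the same set number were averaged, and the 3 averages tested against 0 with limma 3.58.1 in R 4.3.3 (two-sided, 2 residual degrees of freedom, prior 4.08), after a check on simulated data. Dye effects used the unturned averages. Adjusted p-values are Benjamini-Hochberg over all genes.

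The 10 genes and the lists were chosen with earlier results of these data known. The naming rule took the 10 genes, up to 4 called genes of each list (or the 2 largest means where none was called), the 5 genes nearest to Id2, and Tnf, Il1b and Egr1. Alternatives covered zeros, incomplete probes, centring, quantile normalization, separate arrays, the set as a block, each set left out, each orientation alone and single probes.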

Additional observations from a re-analysis of the deposited data

How the results depend on the processing

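Id2 averaged -1.52 after quantile normalization, with a larger SD over sets (0.41). The treated against untreated count of 1097 genes became 522 with zeros kept as ratios, 649 on the Cy3 arrays alone and 1035 on the Cy5 arrays alone, and between 499 (without set 1) and 832 with a set left out; the cause was not tested. The pathway count of 15 became 9 with zeros kept. Chrd, with no call, averaged 0.02 with treated RNA in Cy3 alone. The dye count of 5 (Cst7, Ctsm, Kl, Sdf2l1 and Tex47, named after their values were seen) became 0 with zeros kept (2418 at an unadjusted p under 0.05), 3 after quantile normalization, and 0 to 24 with a set left out (limma; 873 and 2515 at an unadjusted p under 0.05 for the counts of 0, without sets 1 and 2). With 6 separate arrays and a dye term, the dye count was 277 without a replicate block and 526 with the set number as a replicate block. With that block the treated count was 1097, equal to the fit of set averages by construction, and without it 1439. Arrays that share a number correlated at 0.00556, -0.258 and -0.0636 after orientation means were removed. Of 3 Cy5 arrays, 0 correlated best with the Cy3 array of their own number. Such correlations cannot settle whether arrays of the same number share a culture or RNA. Set 2 had the most exact zeros in both orientations (17.72% in Cy5 and 23.89% in Cy3).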
